A study of Mus musculus with 27 samples.

Results

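Fcgr2b, Fcrla, Cd38, Dpp4, Sla and Scml4 are 6 of the 54532 genes counted in mouse splenic B cells. They were selected on their measured change with disulfiram (DSF), an aldehyde dehydrogenase inhibitor used against alcohol dependence: it lowered them in LPS-stimulated B cells while it did not lower them, or raised them, in B cells stimulated with IL-4+anti-CD40. The changes with DSF under the 2 stimuli of the first experiment, and their difference, therefore chose the genes, and for these contrasts the values of the 6 genes are given as a description with no test.

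RNA-seq libraries came from wild-type C57BL6 spleen B cells, negatively selected and kept in culture for 3 h. In the first experiment, B cells were left unstimulated or were stimulated with LPS or IL-4+anti-CD40, either stimulus with vehicle or with 1 µM DSF, in 4 libraries for each of the 5 groups. The second experiment had 1 library each for unstimulated B cells and for both stimuli with DMSO, DSF or ibrutinib, an inhibitor of the kinase Btk. Neither experiment gave DSF or ibrutinib to unstimulated B cells, so effects of the compounds without a stimulus were not measured. The study's methods give an age and sex for mice that received heart grafts, without saying whether this holds for the mice that gave B cells. Whether a replicate number stands for 1 mouse across groups is not given in the sources used here, so p-values measure only the spread between these libraries. Bulk RNA was sequenced, and fewer cells of a type and less RNA per cell cannot be told apart.

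LPS signals through Toll-like receptor 4 and, in B cells, the related receptor RP105, and stands for T cell-independent activation. IL-4 and an antibody against CD40 stand in for help from T cells. Resting B cells carry brakes on antigen receptor signalling, among them inhibitory receptors with cytoplasmic tyrosine motifs and adaptors that lead signalling proteins to degradation, and activation changes the levels of many of them.

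Of the 6 genes, Fcgr2b encodes the inhibitory Fc receptor for IgG on B cells (ENSMUSG00000026656, chr1:170958617-170976547, minus strand, mm10). Fcrla encodes an Fc receptor-like protein that stays inside B cells (ENSMUSG00000038421, chr1:170917576-170927583, minus strand). Cd38 encodes a surface enzyme that uses NAD to make cyclic ADP-ribose and ADP-ribose (ENSMUSG00000029084, chr5:43868553-43912375, plus strand). Dpp4 encodes the surface dipeptidyl peptidase CD26 (ENSMUSG00000035000, chr2:62330073-62412231, minus strand). Sla encodes the Src-like adaptor, a negative regulator of antigen receptor signalling (ENSMUSG00000022372, chr15:66780819-66831829, minus strand). Scml4 encodes a protein of the Scm family of Polycomb group proteins (ENSMUSG00000044770, chr10:42860370-42960780, plus strand). All 6 are protein-coding genes, and their coordinates in the files equal those of GENCODE vM21.

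RefSeq promoter windows of the build GRCm38.p6 were found for 4 of the 6 genes, and those of Fcrla and Dpp4 are shown because they lie outside the exons annotated for these genes. Each is the 250 bases before the RefSeq start, 5′ to 3′ on the gene's own strand, at chr1:170927584-170927833 and chr2:62412232-62412481, both on the minus strand. Capitals mark the PU box, GAGGAA, a motif read by PU.1 in B cells and myeloid cells, here on the opposite strand.
Fcrla: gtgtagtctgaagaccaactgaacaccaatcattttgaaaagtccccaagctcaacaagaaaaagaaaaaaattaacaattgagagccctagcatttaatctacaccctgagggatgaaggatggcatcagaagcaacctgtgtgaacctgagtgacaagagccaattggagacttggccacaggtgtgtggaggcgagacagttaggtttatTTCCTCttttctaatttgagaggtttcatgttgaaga
Dpp4: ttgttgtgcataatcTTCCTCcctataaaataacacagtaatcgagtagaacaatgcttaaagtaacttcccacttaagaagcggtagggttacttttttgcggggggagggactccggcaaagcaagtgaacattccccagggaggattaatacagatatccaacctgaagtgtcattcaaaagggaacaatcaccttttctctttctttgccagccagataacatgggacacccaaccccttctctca
The PU box stood 37 to 32 bases before the start of Fcrla and 235 to 230 bases before that of Dpp4, and it occurred on either strand in 23.3% of 32851 promoter windows of the same length. The windows of Fcgr2b and Cd38 held none, but 187 and 250 of their 250 bases lie in exons annotated for these genes. For these genes the motif search thus covered mostly or only exon sequence. The STAT palindrome with a spacer of 4 or 3 bases, which occurred in 5.85% and 7.02% of windows, and the NF-kB motif, which occurred in 1.21%, were in none of the 4 windows on either strand. None of the motif matches in the 4 windows overlapped another.

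The 20 libraries of the first experiment held 17804851 to 23632992 counts, and the 7 of the second held 16049295 to 24619776. The 10 B cell markers were detected in every library, with Cd79a at a mean of 301 to 1080 FPKM across the groups of the first experiment, while the 10 T cell markers summed to at most 4.77 FPKM. FPKM are counts per kilobase of gene length and per a fixed number of reads, and they are the scale on which levels are compared between genes here. Unstimulated replicates 1 and 2 stood apart from replicates 3 and 4: 14.4% of the genes expressed in unstimulated B cells had a highest level of 2-fold or more the lowest among the 4 libraries, against 0.593% in LPS-stimulated B cells and 3.92% with IL-4+anti-CD40. The 9 neutrophil markers summed to 80.1 and 80.2 FPKM in unstimulated replicates 1 and 2 and to 25.2 and 30.8 FPKM in replicates 3 and 4. Every comparison with unstimulated B cells was therefore also made without either pair. Replicates 1 and 2 of the IL-4+anti-CD40 group likewise stood apart from replicates 3 and 4, with a chi-square per gene of 15.7 to 27.3 between the pairs against 3.49 and 6.43 within them, and values resting on that group are given without either pair too.

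The 6 genes shared one outline in the first experiment: each was lowered strongly by IL-4+anti-CD40 and less or not at all by LPS. With DSF the levels under the 2 stimuli were nearer to each other than without it. The ratio of LPS to IL-4+anti-CD40 ran from 3.28 to 9.46 without DSF and from 0.707 to 2.03 with DSF. Fcrla was the most abundant per length and Scml4 the least, with means of 182 and 9.69 FPKM in unstimulated B cells.

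Fcgr2b stood at 19.1, 19.8, 26.9 and 25 FPKM in the 4 unstimulated libraries and at 27.7, 30.6, 26.9 and 27.3 FPKM with LPS. It stood at 3.21, 3.94, 5.09 and 6.55 FPKM with IL-4+anti-CD40. The ranges of the unstimulated and LPS groups met, and every library with IL-4+anti-CD40 lay below both groups. With DSF, the levels were 10.5, 10.1, 10.4 and 9.83 FPKM under LPS and 12.2, 12.1, 11.2 and 11.5 FPKM under IL-4+anti-CD40. All 8 libraries with DSF thus lay between the highest library with IL-4+anti-CD40 alone and the lowest unstimulated library, and the order of the stimuli was turned around. The log2 fold change with DSF was -1.45 ± 0.05 (SE, n = 4 per group) under LPS and 1.30 ± 0.17 under IL-4+anti-CD40.

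Fcrla stood at 161, 171, 203 and 191 FPKM in unstimulated B cells, at 65.1, 68.5, 71.0 and 65.5 FPKM with LPS and at 13.1, 11.1, 15.2 and 15.1 FPKM with IL-4+anti-CD40. With DSF, it stood at 26.3, 29.0, 24.9 and 26.2 FPKM under LPS and at 19.0, 18.6, 20.1 and 18.4 FPKM under IL-4+anti-CD40. No 2 of the 5 groups overlapped, and unlike Fcgr2b it kept the order of the stimuli with DSF. Its log2 fold change with DSF was -1.32 ± 0.05 under LPS and 0.46 ± 0.10 under IL-4+anti-CD40, the smallest rise among the 4 genes that rose.

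Cd38 was split in unstimulated B cells, at 20.4 and 22.3 FPKM in replicates 1 and 2 and at 71.0 and 76.4 FPKM in replicates 3 and 4. It stood at 16.3, 16.2, 17.1 and 16.7 FPKM with LPS and at 7.46, 7.43, 7.22 and 7.08 FPKM with LPS and DSF. Each group with LPS spanned less than 1 FPKM. With IL-4+anti-CD40 it stood at 3.62, 3.99, 5.37 and 7.20 FPKM, and with DSF added at 11.3, 8.76, 11.6 and 9.66 FPKM. Cd38 and Fcgr2b were both lowest in replicate 1 and highest in replicate 4 of the IL-4+anti-CD40 group, and their coefficients of variation there were 32.1% and 31.0%. The log2 fold change of Cd38 with DSF was -1.16 ± 0.05 under LPS and 1.01 ± 0.19 under IL-4+anti-CD40, and with DSF its level under LPS lay below every library with IL-4+anti-CD40 and DSF.

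Dpp4 stood at 14.7, 15.2, 21.2 and 18.9 FPKM in unstimulated B cells and at 26.0, 26.5, 22.6 and 22.1 FPKM with LPS, all 4 above the unstimulated libraries. DSF brought it to 6.95, 6.82, 6.41 and 6.48 FPKM under LPS. With IL-4+anti-CD40 it stood at 3.61, 3.08, 3.07 and 3.43 FPKM, and with DSF added at 3.49, 3.49, 2.93 and 3.21 FPKM, 2 groups that overlapped. Its log2 fold change with DSF was -1.85 ± 0.06 under LPS and -0.03 ± 0.09 under IL-4+anti-CD40.

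Sla was the most even of the 6 in unstimulated B cells, at 22.7, 22.0, 22.8 and 22.4 FPKM. It stood at 15.4, 16.1, 15.5 and 15.4 FPKM with LPS and at 3.77, 3.76, 3.35 and 3.66 FPKM with LPS and DSF. The latter change, -2.08 ± 0.05 on the log2 scale, was the largest fall with DSF among the 6 genes. With IL-4+anti-CD40 it stood at 2.02, 2.57, 2.42 and 2.38 FPKM without DSF and at 2.74, 2.39, 2.09 and 2.24 FPKM with DSF. These groups overlapped, at a log2 fold change of -0.01 ± 0.10, and both lay below the libraries with LPS and DSF.

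Scml4 stood at 8.64, 8.74, 10.7 and 10.7 FPKM in unstimulated B cells, at 3.76, 3.49, 3.48 and 3.77 FPKM with LPS and at 1.32, 1.22, 1.08 and 1.18 FPKM with LPS and DSF. It stood at 0.327, 0.339, 0.416 and 0.452 FPKM with IL-4+anti-CD40 and at 0.657, 0.759, 0.684 and 0.753 FPKM with DSF added. No 2 groups overlapped. The lowest group rested on 54 to 71 counts per library. The log2 fold change with DSF was -1.58 ± 0.08 under LPS and 0.87 ± 0.14 under IL-4+anti-CD40.

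**Figure D1:**
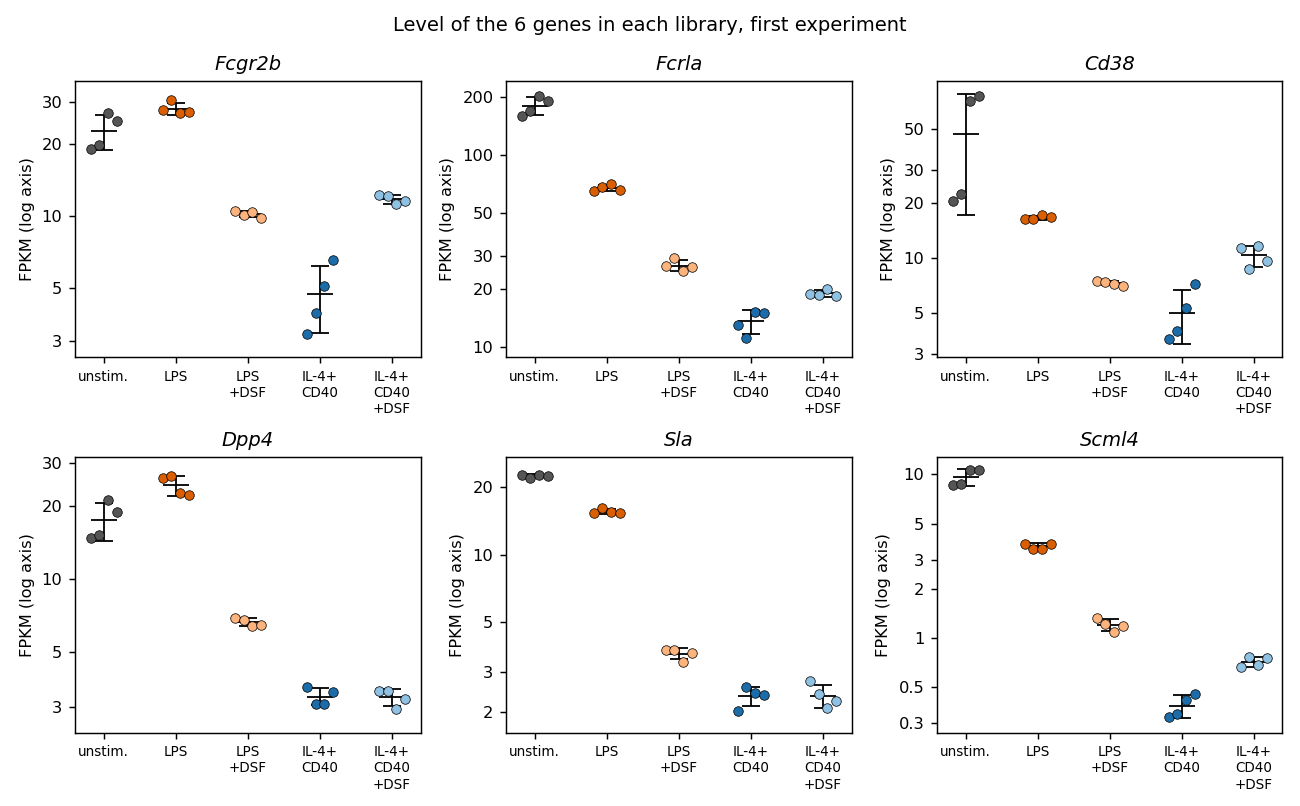
Level of each gene in FPKM (log axis) in the 20 libraries of the first experiment, by group (unstim., unstimulated; CD40, anti-CD40). Points are libraries, the long bar is the mean and the whiskers are the SD of 4 libraries; Cd38 is split between 20.4 to 22.3 and 71.0 to 76.4 FPKM in unstimulated B cells, and every gene is lower with IL-4+anti-CD40 than with LPS in all vehicle libraries.

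All 6 genes were thus lower with DSF under LPS and 4 of them, Fcgr2b, Fcrla, Cd38 and Scml4, were higher with DSF under IL-4+anti-CD40, as the choice of the genes fixed. By the same edgeR quasi-likelihood test with Benjamini-Hochberg adjustment, 36.0% of 14154 genes were lower with DSF under LPS and 30.1% of 14275 genes were higher with DSF under IL-4+anti-CD40. Of the 13736 genes tested under both stimuli, 9.07% were lower under LPS and not lower under IL-4+anti-CD40, and 0.932% were lower under the one and higher under the other. The difference of the 2 effects, LPS minus IL-4+anti-CD40, ran from -2.76 ± 0.18 for Fcgr2b to -1.79 ± 0.11 for Fcrla on the log2 scale, and 6.96% of 15130 genes had a difference called below 0. Without IL-4+anti-CD40 replicates 1 and 2 the rises with DSF under IL-4+anti-CD40 were 0.99 for Fcgr2b, 0.31 for Fcrla, 0.70 for Cd38 and 0.70 for Scml4. Without replicates 3 and 4 they were 1.71, 0.64, 1.43 and 1.09. Either way the difference of the 2 effects stayed below 0 in the 6 genes, with values from -3.16 to -1.64.

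Markers of macrophages and monocytes moved with part of this. Their summed level over 10 genes was 99.8 to 117 FPKM with IL-4+anti-CD40 and 132 to 167 FPKM with DSF added, with 7 of the 10 at a higher mean with DSF, and it was 95.2 to 111 FPKM with LPS and 98.9 to 105 FPKM with LPS and DSF, with 4 of 10 higher. Most of the sum was Lyz2, at means of 74.0 and 95.5 FPKM with IL-4+anti-CD40 without and with DSF, and at most 1 of the 10 markers was at 0 in any of these libraries. Fcgr2b and Cd38 are also expressed by macrophages, and the part of these cells in the values was not tested. Markers of B cells summed to 1730 to 1770 FPKM with LPS and 1360 to 1450 FPKM with DSF added, with 9 of 10 lower, the direction of the 6 genes there. Under IL-4+anti-CD40 they went from 1690 to 1910 FPKM without to 1530 to 1610 FPKM with DSF, with 6 of 10 lower. With DSF, 8 of 9 neutrophil markers were higher under LPS, at sums of 20.9 to 23.9 and 26.5 to 29.4 FPKM, and 5 of 9 under IL-4+anti-CD40, at 14.5 to 20 and 21.4 to 25.4 FPKM. Of 7 erythroid markers, 6 were higher with DSF under either stimulus, at sums of at most 4.83 FPKM. Of 8 dendritic cell markers, 4 were higher with DSF under LPS, at sums of 10.3 to 10.8 and 15.4 to 17.5 FPKM. Under IL-4+anti-CD40, 3 of the 8 were higher with DSF, at sums of 18.8 to 20.2 and 21.1 to 22.0 FPKM. Of 6 plasma cell markers, 5 were higher with DSF under LPS, at sums of 399 to 404 and 477 to 511 FPKM. Under IL-4+anti-CD40, 4 of the 6 were higher, at 335 to 342 and 374 to 385 FPKM. The part of these cells in the values was not tested either.

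In each of the 4 stimulated groups all 6 genes differed from unstimulated B cells by edgeR's quasi-likelihood test. The 4 comparisons share the unstimulated libraries, and the stimulated libraries are those that chose the genes. The share of all genes called in either direction was 62.9% under LPS, 62.5% under IL-4+anti-CD40, and 71.6% and 68.7% with DSF added to the one and the other. By direction, LPS left 2 of the 6 genes higher and 4 lower, where 29.6% and 33.3% of all genes were called so. The 6 genes were lower in the other 3 comparisons, where 32.1%, 37.3% and 35.3% of all genes were called lower under IL-4+anti-CD40, under LPS plus DSF and under IL-4+anti-CD40 plus DSF. The median log2 fold change of the 6 genes was -0.96, -3.23, -2.66 and -2.82 in these comparisons, beside medians of all genes tested from -0.0459 to -0.00269.

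With IL-4+anti-CD40 the fall from unstimulated B cells was largest for Scml4, at -4.64 ± 0.15 (adjusted p = 2.4e-07), followed by Fcrla at -3.72 ± 0.14 (adjusted p = 3.1e-07). Sla changed by -3.24 ± 0.09 and Cd38 by -3.23 ± 0.50 (adjusted p = 1.1e-07 and 0.00049). Dpp4 and Fcgr2b changed by -2.39 ± 0.14 and -2.26 ± 0.22 (adjusted p = 3.0e-06 and 4.0e-05). As a share of the unstimulated mean, the FPKM of the 6 genes with IL-4+anti-CD40 were between 3.96% for Scml4 and 20.7% for Fcgr2b. Without IL-4+anti-CD40 replicates 1 and 2, or without 3 and 4, all 6 genes were called lower as well, with Fcgr2b at -1.91 and -2.63 and Cd38 at -2.87 and -3.61.

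With LPS the genes went different ways. Cd38, Fcrla, Scml4 and Sla fell, with log2 fold changes of -1.52 ± 0.44, -1.42 ± 0.09, -1.41 ± 0.10 and -0.51 ± 0.05 (edgeR adjusted p = 0.014, 3.9e-06, 6.2e-06 and 4.5e-05). Dpp4 rose by 0.49 ± 0.13 (adjusted p = 0.012). Fcgr2b rose by 0.32 ± 0.12 (adjusted p = 0.046), and that call was lost without unstimulated replicate 1 or 2 or any 1 of the 4 LPS libraries, at values from 0.26 to 0.35 and adjusted p from 0.064 to 0.106. With total counts as the scaling, Fcgr2b was at 0.10 and Dpp4 at 0.26 (adjusted p = 0.441 and 0.082), and neither was called.

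With DSF, all 6 genes were below their unstimulated level under both stimuli in the first experiment. Under LPS with DSF the log2 fold changes against unstimulated B cells ran from -1.15 ± 0.12 for Fcgr2b to -3.01 ± 0.11 for Scml4, with Dpp4 at -1.39 ± 0.12, Sla at -2.62 ± 0.07, Cd38 at -2.70 ± 0.45 and Fcrla at -2.77 ± 0.10. Under IL-4+anti-CD40 with DSF they ran from -0.94 ± 0.12 for Fcgr2b to -3.75 ± 0.11 for Scml4, with Cd38 at -2.20 ± 0.45, Dpp4 at -2.40 ± 0.14, Sla at -3.24 ± 0.09 and Fcrla at -3.24 ± 0.09. Thus the rise of Fcgr2b, Fcrla, Cd38 and Scml4 with DSF left them at 51.7%, 10.5%, 21.7% and 7.36% of the unstimulated mean FPKM. The largest edgeR adjusted p among these 12 values was 0.0021, for Cd38.

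The values of Cd38 against unstimulated B cells depended on the unstimulated libraries. Without unstimulated replicates 1 and 2 its log2 fold changes were -2.13 under LPS, -3.84 under IL-4+anti-CD40, and -3.34 and -2.83 with DSF added. Without replicates 3 and 4 they were -0.34, -2.07, -1.57 and -1.06. For LPS against unstimulated B cells, Dpp4 was 0.31 without replicates 1 and 2 and 0.73 without replicates 3 and 4, and Fcgr2b was 0.15 and 0.56. All 6 genes were called with the same direction in all 4 comparisons either way. Leaving out a pair also took the spread between the pairs out of the test. The SE of Cd38 under LPS was 0.44 with all unstimulated libraries and 0.05 without either pair. The directions can be compared, but these calls are no check against that spread. The macrophage and monocyte markers, which summed to 342 to 448 FPKM in unstimulated B cells, were also higher in sum there than in every stimulated group of the first experiment. By gene, 6 to 9 of the 10 were higher. So were 9 of 10 B cell, 8 to 10 of 10 T cell, 8 to 9 of 9 neutrophil, 7 of 7 NK cell and 7 of 7 erythroid markers. Dendritic cell markers were higher in 5 to 7 of 8 and plasma cell markers in 3 to 4 of 6. The part of these cells in the falls was not tested. In the second experiment, 6 of 6 genes were below their unstimulated level with either stimulus, beside 50.5% of all genes under LPS and 50.7% under IL-4+anti-CD40. The macrophage and monocyte markers there summed to 20.1 FPKM in unstimulated B cells and 16.6 and 19.8 FPKM with LPS and IL-4+anti-CD40. Each of these sums is from 1 library, and the part of these cells was not tested there either.

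**Figure D2:**
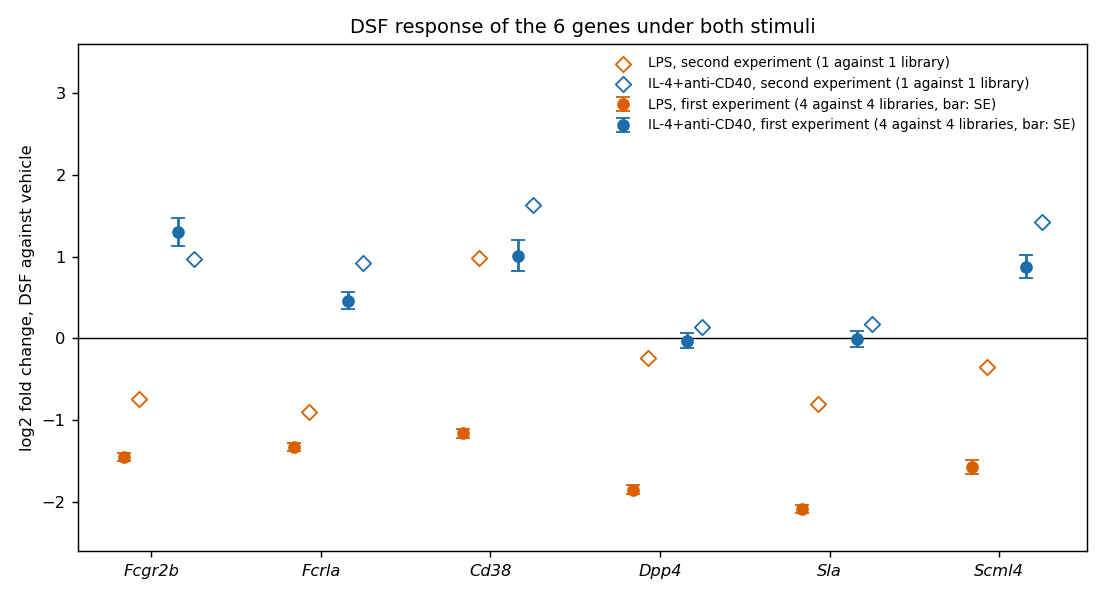
Log2 fold change with DSF against vehicle under LPS (orange) and IL-4+anti-CD40 (blue). Filled circles are the first experiment with SE (4 against 4 libraries), which chose the genes, and open diamonds are the second experiment (1 against 1 library, no error); under LPS, Cd38 is at -1.16 in the first and 0.98 in the second experiment, while the other 5 genes are below 0 in both.

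The second experiment was not used to choose the genes, but it had 1 library per condition, so its differences have no replicate check and no test. Fcgr2b stood at 27.8 FPKM in unstimulated B cells, at 19.0 and 11.4 under LPS without and with DSF, and at 6.11 and 11.9 under IL-4+anti-CD40 without and with DSF. Fcrla followed the same order of libraries, at 207, 60.2, 32.0, 18.2 and 34.3 FPKM. In both genes the 2 libraries with DSF were nearly level.

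Sla stood at 26.3 FPKM in unstimulated B cells, at 7.89 and 4.48 under LPS without and with DSF, and at 4.44 and 4.96 under IL-4+anti-CD40 without and with DSF. Scml4 stood at 11.2, 2.11, 1.64, 0.639 and 1.72 FPKM in the same libraries. Dpp4 stood at 15.7, 8.18, 6.89, 5.22 and 5.71 FPKM. LPS thus lowered Dpp4 and Fcgr2b in this experiment, at log2 ratios of -0.94 and -0.54 to unstimulated B cells, where the first experiment had both above the unstimulated level.

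Cd38 did not follow. It stood at 16.7 FPKM in unstimulated B cells, at 6.19 under LPS and 12.2 when DSF was added, and at 5.49 under IL-4+anti-CD40 and 17.0 when DSF was added. DSF thus went with a higher level under both stimuli, with log2 ratios of 0.98 and 1.64.

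For the other 5 genes the log2 ratio with DSF was below 0 under LPS and above 0 under IL-4+anti-CD40, a combination seen in 7.41% of 14275 genes. Each side on its own, 5 of 6 genes were below 0 under LPS beside 51.3% of all genes, and 6 of 6 were above 0 under IL-4+anti-CD40 beside 49.7%. Under LPS the ratios were -0.74 for Fcgr2b, -0.90 for Fcrla, -0.24 for Dpp4, -0.81 for Sla and -0.35 for Scml4, all smaller in size than in the first experiment. Under IL-4+anti-CD40 they were 0.97, 0.93, 0.14, 0.17 and 1.42 in the same order. Dpp4 and Sla were thus the genes nearest to 0 under IL-4+anti-CD40 in both experiments. Scaled to total counts, Dpp4 and Sla were at -0.10 and -0.07 and the combination held in 3 of the 6 genes.

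The DSF ratio under LPS minus that under IL-4+anti-CD40 was below 0 in 6 of 6 genes, beside 51.8% of all genes. It was -1.83 for Fcrla, -1.77 for Scml4, -1.71 for Fcgr2b, -0.98 for Sla, -0.65 for Cd38 and -0.38 for Dpp4. A value of 2-fold or more below 0 was thus reached by 3 of 6 genes and by 6.09% of all genes. Macrophage and monocyte markers rose with DSF under both stimuli in this experiment, from 16.6 to 35.2 FPKM with LPS and from 19.8 to 35.4 FPKM with IL-4+anti-CD40, and erythroid markers rose from 36.7 to 92.9 and from 34.3 to 81.0 FPKM. Their part in the values was not tested.

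**Figure D3:**
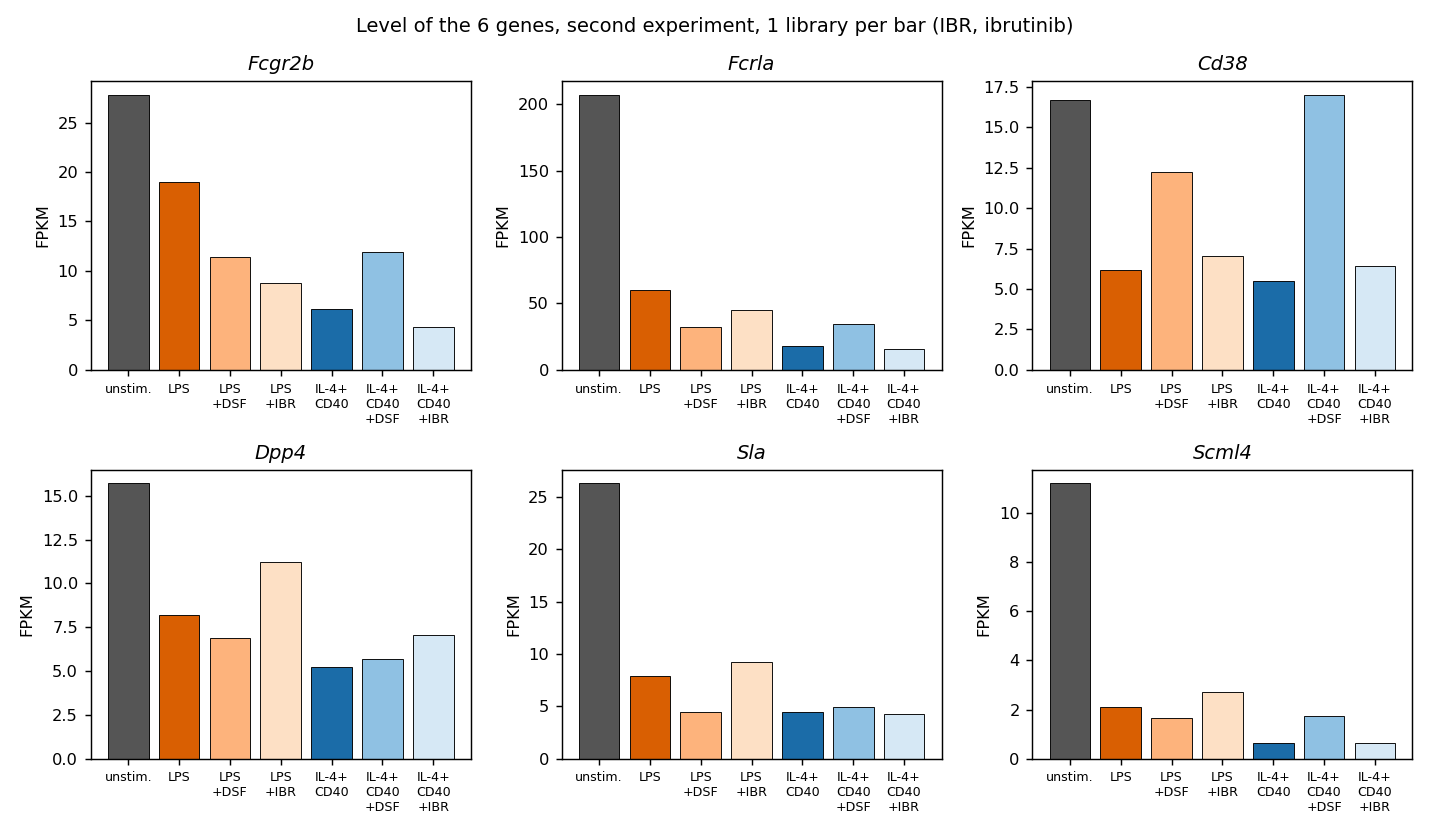
Level of each gene in FPKM in the 7 libraries of the second experiment, 1 library per bar with no error (unstim., unstimulated; CD40, anti-CD40; IBR, ibrutinib). Except for Cd38, the bar with LPS and DSF is lower than the bar with LPS, and in all 6 genes the bar with IL-4+anti-CD40 and DSF is higher than that with IL-4+anti-CD40.

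Ibrutinib gave another pattern. Fcgr2b was the one gene it moved by 2-fold or more, from 19.0 to 8.83 FPKM under LPS, a log2 ratio of -1.09, where 2.47% of all genes fell as much. Under IL-4+anti-CD40 Fcgr2b stood at 4.37 FPKM with ibrutinib against 6.11 with DMSO, a log2 ratio of -0.47, so it was lower with ibrutinib under both stimuli while DSF lowered it under the one and raised it under the other. Fcrla was also lower under both, at 45.0 FPKM under LPS and 15.8 under IL-4+anti-CD40.

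Dpp4 was higher with ibrutinib under both stimuli, at 11.2 and 7.03 FPKM. Cd38 stood at 7.04 and 6.43 FPKM with ibrutinib, at log2 ratios of 0.20 and 0.23. Sla and Scml4 had ratios of 0.24 and 0.37 under LPS and of -0.04 and -0.02 under IL-4+anti-CD40. The ibrutinib ratio under LPS minus that under IL-4+anti-CD40 ran from -0.61 for Fcgr2b to 0.39 for Scml4 and was below 0 in 3 of 6 genes, Fcgr2b, Fcrla and Cd38, beside 49.5% of all genes. Both inhibitors were compared with the same DMSO libraries. With ibrutinib the B cell markers summed to 2850 FPKM under LPS and 2750 FPKM under IL-4+anti-CD40, against 2120 and 1830 FPKM with DMSO. Erythroid markers summed to 64.3 FPKM with ibrutinib under LPS against 36.7 FPKM with DMSO, and to 31.9 against 34.3 FPKM under IL-4+anti-CD40, and their part in the values was not tested.

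The ratio of the FPKM with LPS to the FPKM with IL-4+anti-CD40 put these values on 1 scale. Without DSF it was 9.46 for Scml4, 7.37 for Dpp4, 6.65 for Sla, 5.99 for Fcgr2b, 4.95 for Fcrla and 3.28 for Cd38 in the first experiment. With DSF it was 1.68, 2.03, 1.54, 0.867, 1.40 and 0.707 in the same order. These ratios come from the groups that chose the genes, and they are given as a description only. Over 11406 genes with a mean of at least 1 FPKM in the stimulated groups, the median fold between the stimuli was 1.17 without DSF and 1.18 with DSF. Of these genes, 53.2% were closer to equal levels with DSF.

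In the second experiment the ratio was 3.30 for Scml4, 1.57 for Dpp4, 1.78 for Sla, 3.12 for Fcgr2b, 3.31 for Fcrla and 1.13 for Cd38 with DMSO. With DSF it lay between 0.718 for Cd38 and 1.21 for Dpp4, and the values of Scml4, Fcgr2b, Fcrla and Sla lay between 0.904 and 0.955. With ibrutinib it was 4.30, 1.59, 2.14, 2.02, 2.85 and 1.10 in the order Scml4, Dpp4, Sla, Fcgr2b, Fcrla and Cd38, above 1 in all 6. With 1 library per condition, these ratios have no error.

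**Figure D4:**
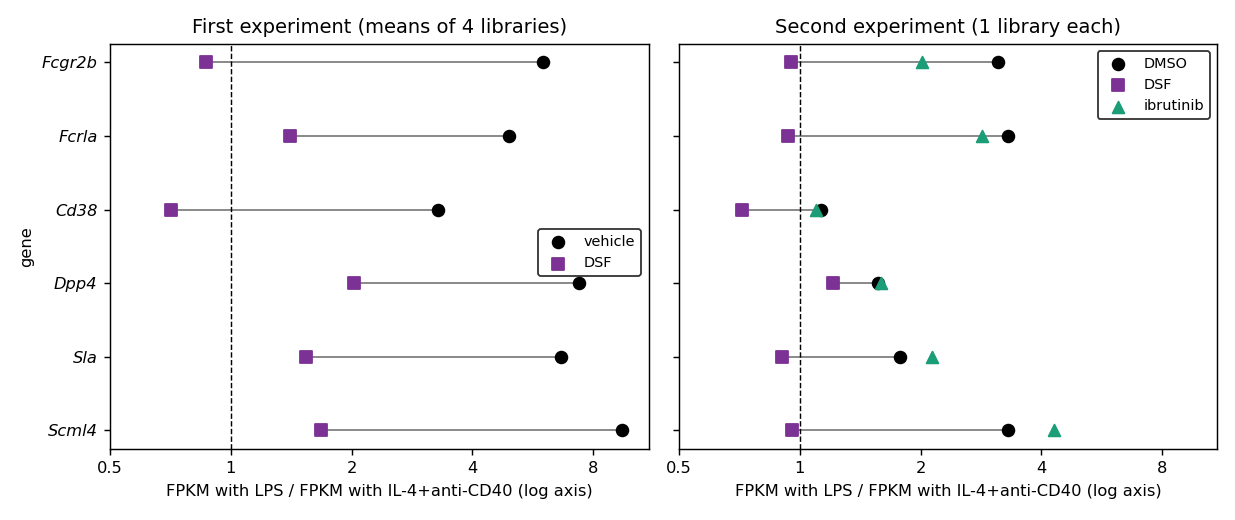
Ratio of the FPKM with LPS to the FPKM with IL-4+anti-CD40 (log axis; dashed line, equal levels) for each gene in both experiments, without inhibitor (black), with DSF (purple) and with ibrutinib (green). With DSF the ratios lie from 0.707 to 2.03 in the first and from 0.718 to 1.21 in the second experiment.

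Fcgr2b and Fcrla lie 31034 bases apart on chromosome 1, within the cluster of genes for low-affinity Fc receptors, so the genes around them were examined. Fcrlb, the paralogue of Fcrla 4635 bases from it, stood at means of 0.631, 0.371, 0.10 and 0.403 FPKM in B cells given LPS, LPS plus DSF, IL-4+anti-CD40, and the latter plus DSF. The difference of its DSF effects between the stimuli was -2.65 ± 0.65 (edgeR adjusted p = 0.0083), on a mean of 12.5 counts per library, and 0.24 in the second experiment. Gm10522, a lincRNA on the plus strand 5397 bases from Fcgr2b, had a difference of -3.49 ± 1.17 (adjusted p = 0.0499) on a mean of 8.25 counts, a call lost on leaving out any 1 of 13 of the 16 libraries. Both genes passed the filter on low counts with the LPS groups and not with the IL-4+anti-CD40 groups alone, so they entered the test through the groups where they were higher.

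The other Fc receptor genes of the cluster did not pass. Fcgr3, for the activating receptor closest in sequence to Fcgr2b, had a difference of -0.25 ± 0.53, and Fcgr4 of -0.04 ± 0.93, on means of 47.6 and 32.8 counts, so a difference of the size seen in Fcrla was within 2 standard errors for Fcgr4 and outside it for Fcgr3. Of the genes on the far side of Fcrla, Atf6, a sensor of unfolded protein in the endoplasmic reticulum, had a difference of -0.36 ± 0.07 (adjusted p = 0.0022), and Dusp12 and Gm9929 had -0.34 ± 0.13 and -0.16 ± 0.20 (adjusted p = 0.088 and 0.659). Gm2962, a processed pseudogene inside Fcrla, had -0.74 ± 0.30 (adjusted p = 0.108).

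**Figure D5:**
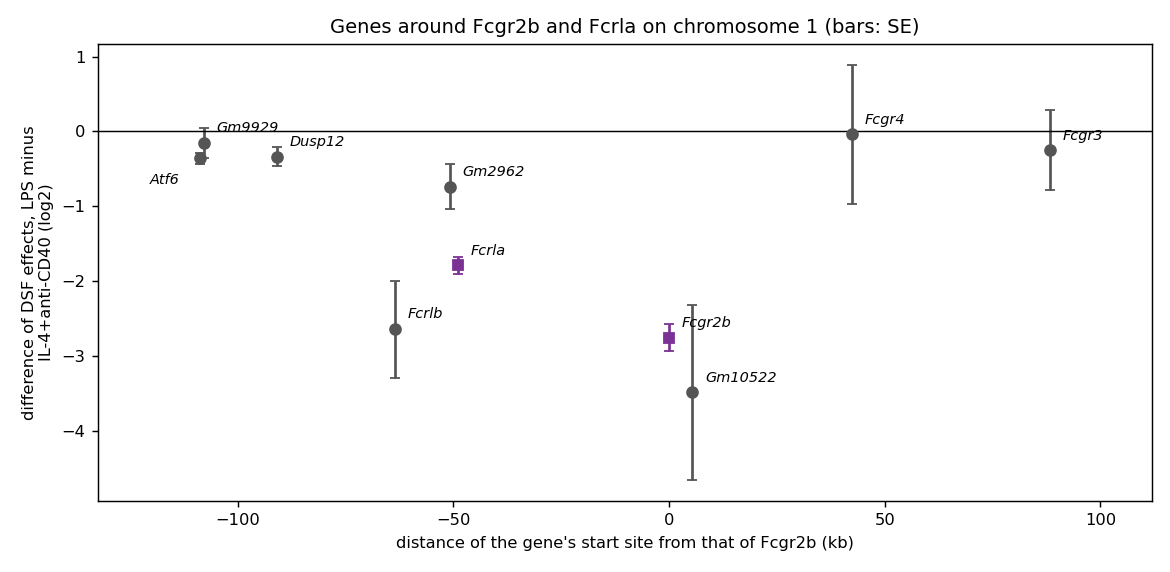
Difference of the DSF effects, LPS minus IL-4+anti-CD40 (log2, bars are SE of 4 libraries per group), against the distance of each gene's start from that of Fcgr2b in kb. Squares are Fcgr2b and Fcrla, which were chosen for this value, and circles the other genes passing the filter on low counts; Fcrlb and Gm10522, which passed that filter in the LPS groups and not in the IL-4+anti-CD40 groups, lie at -2.65 and -3.49, and Fcgr3 and Fcgr4 near 0.

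Over the 6 loci, 19 other genes within 100 kb passed the filter on low counts, and 5 of them had a difference of DSF effects that passed the test, beside 14.9% of all 15130 genes tested. Of these 5, Fcrlb, Gm10522 and Gm13561, an antisense transcript overlapping Dpp4, failed the filter in the IL-4+anti-CD40 groups. Of the 11 neighbours that passed it under both stimuli, 2 were called, beside 16.1% of 13736 genes. Gm13561 was at -1.52 ± 0.49 (edgeR adjusted p = 0.042), a call lost on leaving out any 1 of 10 of the 16 libraries. The 2 called that passed under both were Atf6 and Ndrg1, a stress-response gene 97489 bases from Sla, at -0.82 ± 0.23 (adjusted p = 0.022). Without IL-4+anti-CD40 replicates 1 and 2 Ndrg1 was at -0.43 (adjusted p = 0.0674) and was not called. Ndrg1 rose with DSF under both stimuli, by 1.62 under LPS and 2.43 under IL-4+anti-CD40 on the log2 scale, whereas Sla fell under LPS.

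Transcripts that overlap the genes had lower counts and values in the same direction. Gm16015, antisense to Cd38, had a difference of -1.24 ± 0.46 (adjusted p = 0.077), and Tg, the gene on the plus strand around Sla, had -1.13 ± 0.41 (adjusted p = 0.074). Whether the counting used strand is not given in the sources used here, so reads of these genes and of their antisense partners cannot be told apart. Bst1, the paralogue of Cd38 24567 bases from it, had -0.67 ± 0.57 on a mean of 20.1 counts, and Fbxl5 and Gm7879 near it had -0.06 ± 0.07 and -0.97 ± 0.34 (adjusted p = 0.614 and 0.059). Near Dpp4, Slc4a10 and Fap had -2.17 ± 1.27 and -0.05 ± 1.25 on means of 8.85 and 8.60 counts, and near Scml4, Sec63 and Gm26860 had 0.09 ± 0.06 and 1.21 ± 0.55 (adjusted p = 0.347 and 0.15).

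Relatives of the 6 genes were then counted in 5 lists without the 6 themselves, where 6.96% of all genes had a difference of DSF effects called below 0 and 7.92% above 0. Of 13 tested Fc receptor and Fc receptor-like genes, 5 had a difference of DSF effects called below 0 and 1 above 0, and the list's median was -0.25 beside 0.02 for all genes. Fcrlb, which failed the filter in the IL-4+anti-CD40 groups, was among the 5. With all 20 libraries in 1 fit, 4 genes of this list were called, each below 0, and the number called over the 5 lists was 14 where it had been 25. Fcrl1, for a B cell surface receptor of the Fc receptor-like family, fell with DSF under LPS by 0.44 and rose under IL-4+anti-CD40 by 0.69 on the log2 scale, a difference of -1.13 ± 0.08 (edgeR adjusted p = 2.0e-08). Fcmr, for the Fc receptor of IgM, behaved alike, with -0.51 and 0.47 and a difference of -0.99 ± 0.09 (adjusted p = 1.8e-07). Fcer2a, for the low-affinity IgE receptor CD23, fell more under IL-4+anti-CD40, from a mean of 913 to 355 FPKM, than under LPS, from 199 to 150 FPKM, a difference of 0.99 ± 0.12 (adjusted p = 1.5e-05), which was not called with all 20 libraries in 1 fit (0.91 ± 0.35, edgeR adjusted p = 0.135). Fcer2a is a gene that IL-4 raises in B cells, and it was the one member of the list that IL-4+anti-CD40 raised over unstimulated B cells.

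Of 30 inhibitory receptors and attenuators of B cell receptor signalling, 8 had a difference called below 0 and 3 above 0, with a median of -0.06, and with all 20 libraries in 1 fit 4 were called, each below 0. Cblb, for a ubiquitin ligase that restrains antigen receptor signalling, stood at means of 19.5 and 9.88 FPKM under LPS without and with DSF, and of 2.15 and 3.71 FPKM under IL-4+anti-CD40 without and with DSF. Its DSF effects were -0.96 ± 0.04 and 0.76 ± 0.08 and their difference -1.73 ± 0.08 (edgeR adjusted p = 1.0e-10). Pirb, an inhibitory receptor for MHC class I, had effects of -0.50 and 0.35 and a difference of -0.85 ± 0.12 (adjusted p = 4.1e-05). Pecam1, an adhesion molecule with inhibitory tyrosine motifs, fell under LPS by 0.65 and had 0.13 ± 0.07 under IL-4+anti-CD40 (adjusted p = 0.126), a difference of -0.79 ± 0.08 (adjusted p = 1.5e-06). Lilrb4a, an inhibitory receptor of the same family as Pirb, rose with DSF under both, by 1.70 and 0.74, a difference of 0.95 ± 0.21 (adjusted p = 0.0035), which was not called with all 20 libraries in 1 fit (0.88 ± 0.70, edgeR adjusted p = 0.517).

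The remaining 3 lists follow the enzymes and Scml4. Of 16 genes of NAD and cyclic ADP-ribose metabolism, Parp1, which consumes NAD in DNA repair, was the one called, with falls of 1.18 and 0.79 and a difference of -0.39 ± 0.09 (edgeR adjusted p = 0.0061). Of 13 genes of the DPP4 family and surface peptidases, Prcp, a prolyl carboxypeptidase, was the one called, at -0.35 and 0.22 and a difference of -0.58 ± 0.12 (adjusted p = 0.0031). Of 33 Polycomb, SCM and MBT domain genes, 1 was called below 0 and 5 above 0. The 1 below was L3mbtl3, an MBT domain gene, with -0.41 and 0.46 and a difference of -0.88 ± 0.14 (adjusted p = 0.00017). Above 0 were Cbx2, a reader of Polycomb marks, at 1.22 ± 0.34 on low levels of 0.208 to 0.750 FPKM in the stimulated groups, and Phf19 and Ezh2, of the complex that writes them, at 0.61 ± 0.14 and 0.39 ± 0.08 (adjusted p = 0.018, 0.0046 and 0.0033). With all 20 libraries in 1 fit, Phf19 was not called (0.53 ± 0.23, edgeR adjusted p = 0.199).

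In the second experiment, the difference of the DSF ratios had the same sign as in the first in 13 of these 14 named list genes, with no test. Over all genes it was below 0 in 51.8% and above 0 in 48.2%. The 14 were named for the largest called differences of the first experiment, and agreement of sign over all genes was not counted. The difference was -1.54 for Fcrl1, -0.96 for Fcmr, 0.94 for Fcer2a, -1.37 for Cblb, -1.01 for Pirb, -1.49 for Pecam1 and 0.89 for Lilrb4a. Fcrlb was the exception, at 0.24. For ibrutinib the same difference ran from -0.30 for Lilrb4a to 1.41 for Fcrlb among the 14 genes. The next highest values were 0.97 for Cbx2 and 0.30 for Fcmr. Over all genes its median was 0.00241, with 3.41% of 14275 genes higher and 3.45% lower by 2-fold or more. These values rest on 1 library per condition and were not tested.

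By their log2 level over the 20 libraries of the first experiment, the 6 genes were correlated with each other at Pearson's r from 0.734 to 0.992. This is a description only: the libraries share groups, and the genes were chosen for a shared pattern over the stimulated groups. The gene most like Fcrla among 15575 was Scml4, at r = 0.992, followed by Syk, the kinase that starts B cell receptor signalling, and Pirb, both at 0.986. Those most like Scml4 were Fam102a at 0.993, Fcrla and, at 0.983, Pirb. Dpp4 was nearest to Rasgrp3 at 0.988, Cnp at 0.982 and Lyn, a kinase with activating and inhibitory parts in B cell receptor signalling, at 0.975. Sla was nearest to Csgalnact2, Gnptab and Dennd1b at 0.978, 0.975 and 0.974. Cd38 was nearest to Pip4k2a at 0.972, Ptprc, which encodes CD45, at 0.954 and Slc28a2 at 0.952, and Fcgr2b had the lowest values, with BE692007 at 0.930, Gm19585 at 0.921 and Stom at 0.914.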

How the data were processed

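RNA-seq was done on 27 libraries of mouse splenic B cells. Per the study's methods, the authors used fastp for trimming, HISAT2 2.0.5 for alignment against mm10 and featureCounts 1.5.0-p3 for counting, and deposited raw counts per gene and FPKM. The annotation release and strand setting are not given in the sources used here. FPKM, which the authors calculated from counts and gene length, were used for levels, and counts for tests.

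The 6 genes, the related gene lists and the marker lists were chosen with earlier results of these data known. Each comparison of 4 against 4 libraries, and the difference of the DSF effects over 16 libraries, was fitted on its own with edgeR 4.0.16 (R 4.3.3): filterByExpr, TMM scaling, quasi-likelihood test, Benjamini-Hochberg adjustment over all genes tested and a threshold of 0.05. The second experiment gave log2 ratios of TMM-normalized CPM (prior count 2), where the mean over libraries reached 10 counts. The fits were tested on simulated counts with 200 genes changed by a log2 fold of 1, and found 148 to 163 of them in the comparisons with unstimulated B cells, 200 and 194 for DSF under LPS and under IL-4+anti-CD40 and 182 for the difference of the DSF effects, on 13968 to 14804 genes, with 4 to 17 false calls each. Simulated libraries of a group varied independently, without the split of the unstimulated and IL-4+anti-CD40 replicates into pairs. The numbers of false calls therefore do not cover that split. Totals of 16049295 to 24619776 counts per library left over 50 counts for each of the 6 genes in every library of the first experiment.

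Genes named beside the 6 were the 3 most correlated with each over 20 libraries, all genes within 100 kb that passed the filter, and from each list up to 4 genes past the threshold for the difference of the DSF effects, those with the largest values. Lyz2 and Cd79a were named after their values were seen, and the 4 promoter motifs were picked after the files were read and searched on both strands. Replicates of a group differed by more than sampling noise (chi-square per gene 2.87 to 93.1 over 30 pairs). Alternatives were DESeq2 1.42.0, its size factors, total counts, other filters on low counts, all 20 libraries in 1 fit, a replicate block and leaving out each library. Leaving out unstimulated or IL-4+anti-CD40 replicates in pairs was chosen after seeing the data.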

Additional observations from a re-analysis of the deposited data

Results flagged for a closer look

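Sla in LPS-stimulated replicate 2, at 16.1 FPKM, lay apart from the other 3 libraries of its group (gap over range 0.857). It was 1 of 30 groups of 4 libraries tested, and chance alone gives about 1 in 20.

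The DSF effect differed between LPS and IL-4+anti-CD40 by edgeR's test of the difference in 14 named list genes and 4 further neighbours of the 6 genes. On the log2 scale, LPS minus IL-4+anti-CD40, the difference was -2.65 for Fcrlb, -1.13 for Fcrl1, 0.99 for Fcer2a and -0.99 for Fcmr. It was -1.73 for Cblb, 0.95 for Lilrb4a, -0.85 for Pirb and -0.79 for Pecam1. It was -0.39 for Parp1, -0.58 for Prcp, 1.22 for Cbx2, -0.88 for L3mbtl3, 0.61 for Phf19 and 0.39 for Ezh2. Among neighbours it was -0.36 for Atf6, -3.49 for Gm10522, -1.52 for Gm13561 and -0.82 for Ndrg1. Fcrlb, Gm10522 and Gm13561 passed the filter on low counts in the LPS groups and not in the IL-4+anti-CD40 groups, and Fcer2a, Lilrb4a, Phf19 and Gm10522 were not called with all 20 libraries in 1 fit.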

How the results depend on the processing

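The 6 genes kept their direction in each comparison with unstimulated B cells under every alternative run, and the calls lost were those of Fcgr2b and Dpp4 with LPS given above. Fcgr2b with LPS was also not called with all 20 libraries in 1 fit (0.33, edgeR adjusted p = 0.0587). The number of list genes called for the difference of the DSF effects was 25 of 105 tested, beside 14.9% of all genes. It was 14 with all 20 libraries in 1 fit, where the unstimulated libraries enter the estimate of the spread. Over the other alternatives it lay between 23 and 32. In the second experiment, 5 genes were below 0 under LPS and above 0 under IL-4+anti-CD40, and 3 with total counts. The near-zero values of Dpp4 and Sla with DSF under IL-4+anti-CD40 have no fixed sign: Sla was -0.01, 0.02 with at least 10 counts in every library and -0.16 with total counts.

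Same-numbered libraries of different groups deviated together little (r from -0.056 to 0.169 over 40 pairs, 3 over 0.1), so the numbers were not taken to pair the samples. The highest values, 0.169 and 0.147, were for replicates 1 and 4 of IL-4+anti-CD40 without and with DSF. Differently numbered libraries of these groups had r from -0.177 to 0.128. With the replicate block, 5 of the 6 genes were called with LPS, Fcgr2b being lost (0.34, edgeR adjusted p = 0.0709), and 6 in each other comparison with unstimulated B cells. List genes called with the block were 26 for the difference of the DSF effects, 79 for DSF under LPS and 73 for DSF under IL-4+anti-CD40. In the main fits 105, 103 and 98 list genes were tested in these comparisons. There 14.9%, 71.1% and 61.8% of all genes were called.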
